A study of Mus musculus with 6 samples.

Results

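Integrins are the receptors with which cells hold and read the extracellular matrix, and the RNA of 10 integrin subunits was followed in D2A1 spheroids. The set was fixed by gene symbol, as the rows of the expression table named Itga2, Itga3, Itga5, Itga6, Itga10, Itgav, Itgb1, Itgb3, Itgb5 and Itgb8. It holds 6 alpha and 4 beta subunits, 10 of the 54146 genes in the table, and each symbol had 1 row. D2A1 is a mouse mammary tumor cell line, grown here as 3D spheroids in Matrigel, a basement membrane extract rich in laminin, with DMEM and fetal bovine serum. Spheroids received 50 nM recombinant SLURP1 (rSLURP1), a secreted protein of the Ly6/uPAR family, or 50 nM recombinant GST (rGST) as the control protein, with harvest on day 5 by the methods of the study. Each treatment had 3 libraries of polyadenylated RNA. All 6 came from the one cell line, and the sources used here do not say whether the 3 libraries of a treatment were separate cultures, so p-values measure only the spread between these libraries, which may be technical. The comparison asks which alpha and beta subunit messages are present in these spheroids and which differ between rSLURP1 and rGST.

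An integrin is a heterodimer of an alpha and a beta subunit, and neither subunit reaches the cell surface in useful amounts without a partner. The alpha subunit largely sets the ligand. Pairs of alpha v, and alpha 5 with beta 1, bind ligands with an RGD motif such as fibronectin, alpha 3 beta 1 and alpha 6 beta 1 bind laminins, and alpha 2 beta 1 and alpha 10 beta 1 bind collagens. Beta 1 serves most of the alpha subunits, whereas beta 5 and beta 8 pair with alpha v, and beta 3 with alpha v or with alpha IIb. The beta tail binds talin and kindlin, which activate the receptor and link it to actin and to focal adhesion kinase. In mammary epithelium and its tumors these receptors carry the signals of the matrix for survival, growth and polarity.

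Levels are given as TPM, a unit that corrects for transcript length, so that levels of different subunits can be compared, and that sets every library to the same total. The depth of sequencing cannot be read from TPM and is unknown, so the spread of the 3 libraries is the only measure of error. Fold changes are rSLURP1 against rGST on the log2(TPM + 1) scale, which understates the change of low genes, and were tested with limma over the 12301 genes with at least 1 TPM in at least 3 libraries. A gene was called at a Benjamini-Hochberg adjusted p of 0.05, and at the stricter threshold of the study's methods also at a 2-fold change. The median log2 fold change of all tested genes was -0.33, so each member's change is also given after subtracting it ("against the all-gene median"). Of all calls, 87.1% were lower with rSLURP1 as deposited and 49.2% when each library was scaled by the median ratio of its tested genes. Pearson correlations of log2(TPM + 1) across genes were 0.983 to 0.986 within a treatment and 0.941 to 0.950 between treatments. Of the mammary epithelial markers, Krt18 was present at a mean of 196 TPM with rGST and 198 TPM with rSLURP1, Krt8 was called lower (1.56 and 0.697 TPM, adjusted p = 0.0097 in limma, which median-ratio scaling moved to 0.0554), and no other passed the filter. Krt8 was below 1 TPM in every rSLURP1 library and passed through rGST alone, so it could only be called lower. Of the markers that did not pass, Epcam, Krt5 and Krt14 were listed at 0 in every library. The summed level of 9 mesenchymal markers was 7670 to 7929 TPM with rGST and 3707 to 3942 TPM with rSLURP1. Fn1 made up most of it, at a mean of 5416 TPM with rGST and 3084 TPM with rSLURP1. Over the 8 markers that passed the filter, the median log2 fold change was -2.13 as deposited and -1.78 with median-ratio scaling. Of these, Col1a1 was below 1 TPM in every rSLURP1 library and passed through rGST alone, so it could only be called lower. As deposited, single changes ran from -0.55 (Zeb1) to -6.55 (Lum). In these bulk samples, fewer cells of a type and less RNA per cell cannot be told apart.

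The beta subunits Itgb5 and Itgb8 and the alpha subunit Itga10 had the largest decreases among the members, Itga3, Itgb1 and Itga5 fell by less, and Itga6 was not called. Of the 10 members, 8 passed the filter on low values, and Itgb3 and Itga2 did not. Of the 8, 7 were called lower with rSLURP1 and 0 higher, where 58.5% of all tested genes were called lower and 8.66% higher. At 2-fold, 3 members were called lower (Itgb5, Itgb8 and Itga10), where 7.06% of all tested genes were. The members' median log2 fold change was -0.69, against -0.33 over all tested genes. With median-ratio scaling, which sets the median of all genes near 0, 5 members were called lower (Itgb5, Itgb8, Itga10, Itga3 and Itgb1) and 2 higher (Itga6 and Itgav). The shares of all genes were then 25.2% lower and 26% higher, and the members' median was -0.34. At 2-fold, only Itgb5 was then called lower, where 3.76% of all tested genes were, and so it was with quantile scaling (3.38% of all genes) and after correcting for length and GC content (3.35%). The direction thus held under the 3 other scalings for Itgb5, Itgb8, Itga10, Itga3 and Itgb1, and turned with the scaling for Itgav and, when length and GC content were corrected for, for Itga5. In the 6 libraries, all 3 rSLURP1 values lay below all 3 rGST values for 7 of the 8 tested members, as for 61.7% of all tested genes.

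The promoters of a pair of members that fell at least 2-fold as deposited, Itgb5 and Itga10, and of a pair with smaller changes, Itgb1 and Itgav, are shown as the 250 bases that end just before the transcript start. They come from RefSeq on GRCm38.p6, 5′ to 3′, and 8 of the 10 members had an entry. Itga6 and Itgb3 had none. Capitals mark matches, on either strand, to the KLF4 motif CCCCACCC, the AP-1 motif TGANTCA, the GC box GGGCGG and the TEAD motif GGAATG, which do not overlap in these windows.
Itgb5 (chr16:33829415-33829664, plus strand): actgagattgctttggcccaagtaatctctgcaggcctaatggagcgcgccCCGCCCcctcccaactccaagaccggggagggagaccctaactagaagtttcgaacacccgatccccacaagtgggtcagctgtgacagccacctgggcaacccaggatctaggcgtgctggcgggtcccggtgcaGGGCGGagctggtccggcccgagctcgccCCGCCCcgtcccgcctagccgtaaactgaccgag
Itga10 (chr3:96645334-96645583, plus strand): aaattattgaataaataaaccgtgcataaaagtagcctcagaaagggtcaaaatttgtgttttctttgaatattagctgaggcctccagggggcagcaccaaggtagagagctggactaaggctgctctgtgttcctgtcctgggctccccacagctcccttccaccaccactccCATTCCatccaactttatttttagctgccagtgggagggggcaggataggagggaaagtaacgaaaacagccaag
Itgb1 (chr8:128685404-128685653, plus strand): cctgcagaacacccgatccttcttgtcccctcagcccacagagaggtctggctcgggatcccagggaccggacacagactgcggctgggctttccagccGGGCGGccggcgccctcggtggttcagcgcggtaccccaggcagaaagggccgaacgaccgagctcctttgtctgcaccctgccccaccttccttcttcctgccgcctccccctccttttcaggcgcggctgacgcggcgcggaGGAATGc
Itgav (chr2:83724147-83724396, plus strand): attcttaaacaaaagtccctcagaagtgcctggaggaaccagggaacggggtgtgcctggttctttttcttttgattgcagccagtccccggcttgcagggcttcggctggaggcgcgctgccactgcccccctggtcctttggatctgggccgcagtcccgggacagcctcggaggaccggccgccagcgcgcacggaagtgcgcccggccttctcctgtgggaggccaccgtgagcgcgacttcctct

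Itgb5 held 3 GC boxes, Itga10 held 1 TEAD motif, Itgb1 held 1 GC box and 1 TEAD motif, and Itgav held none of the searched motifs. Among all 32851 promoter windows of this length, 32.7% held a GC box, 12.6% a TEAD motif, 9.05% the KLF4 motif and 6.75% the AP-1 motif. A match is a run of letters and not a measured binding site. Itgb8, whose window is not printed because it starts within the transcript of GENCODE M21, held 1 KLF4 motif. Among the other windows not printed, those of Itga3 held 1 and 3 GC boxes, Itga5 held 2, and Itga2 held none of the searched motifs. Itgb5 and Itga10 share no searched motif in these windows, and the base composition also differed, with 65.2% G and C for Itgb5 and 48% for Itga10.

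**Figure D1:**
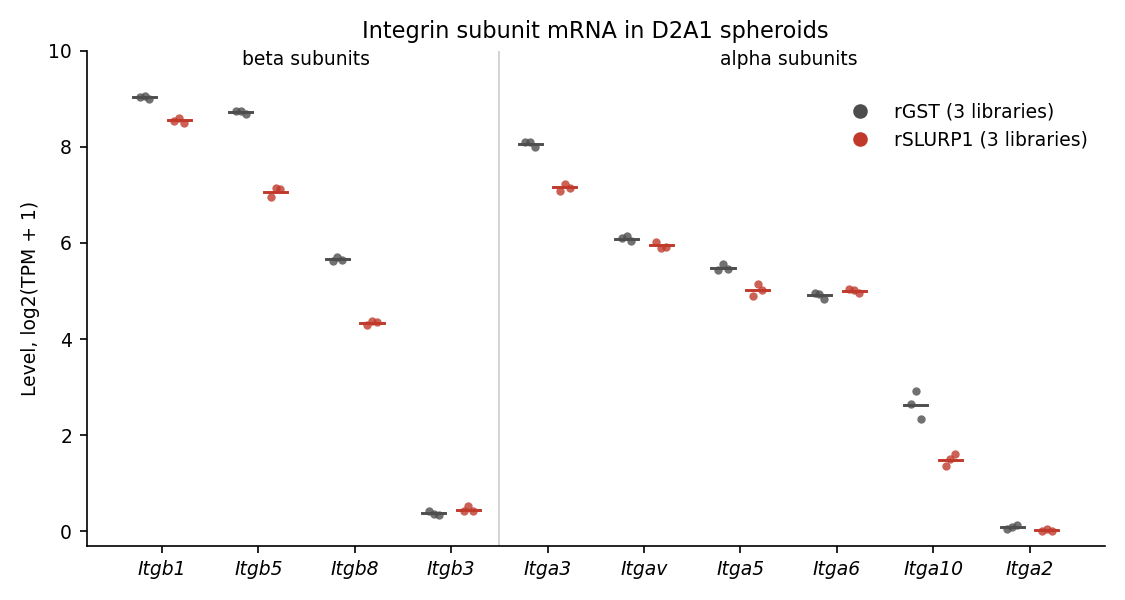
Level of each of the 10 integrin subunits in each library, as log2(TPM + 1), with beta subunits on the left and alpha subunits on the right. Points are the 3 rGST libraries (grey) and the 3 rSLURP1 libraries (red), and bars are their means. Itgb5 and Itgb8 are separated most widely among the beta subunits, whereas Itga6 overlaps between treatments and Itgb3 and Itga2 lie near 0.

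Itgb1 (ENSMUSG00000025809.15; GRCm38 chromosome 8, 128685654 to 128733200, plus strand), the shared partner of most alpha subunits, had the highest level of the members in every library. Its TPM was 522, 535 and 509 with rGST and 373, 387 and 362 with rSLURP1. The treatments did not overlap, and the lowest rGST library stood well above the highest rSLURP1 library. The mean was 522 ± 13.1 TPM with rGST and 374 ± 12.5 TPM with rSLURP1 (SD, n = 3 each). Itgb1 fell by 0.48 on the log2 scale (standard error 0.039, adjusted p = 3.65e-05 in limma), or -0.15 against the all-gene median. With median-ratio scaling the change of Itgb1 was -0.13 (adjusted p = 0.0148 in limma).

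Itgb5 (ENSMUSG00000022817.15; chromosome 16, 33829665 to 33949338, plus strand) encodes the beta subunit of alpha v beta 5, a receptor for vitronectin and other RGD ligands. Its TPM was 427, 430.3 and 408 with rGST and 123, 140 and 138 with rSLURP1. With rGST this was the second message of the set, close behind Itgb1, and no rSLURP1 library came near the rGST range. The mean went from 422 ± 12.2 TPM to 134 ± 9.33 TPM (SD, n = 3 each), a level 3.15 times higher with rGST. On the log2 scale Itgb5 fell by 1.65 (standard error 0.056, adjusted p = 7.74e-07 in limma), or -1.33 against the all-gene median. It was the only member called at 2-fold under each of the scalings, with -1.30 after median-ratio scaling and -1.24 after the length and GC correction.

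Itgb8 (ENSMUSG00000025321.14; chromosome 12, 119158022 to 119238802, minus strand) encodes the beta subunit of alpha v beta 8, which binds latent TGF-beta and takes part in its activation. Its TPM was 48.7, 51.5 and 49.0 with rGST and 18.5, 19.75 and 19.35 with rSLURP1. The libraries of each treatment lay close together and the treatments did not overlap. The mean was 49.7 ± 1.53 TPM with rGST and 19.2 ± 0.622 TPM with rSLURP1 (SD, n = 3 each), 2.59 times higher with rGST. Itgb8 fell by 1.33 (log2, standard error 0.053, adjusted p = 1.64e-06 in limma), or -1.0 against the all-gene median. With median-ratio scaling it was just inside 2-fold, at -0.98 (adjusted p = 4.77e-06 in limma).

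Itgb3 (ENSMUSG00000020689.4; chromosome 11, 104608000 to 104670476, plus strand), the partner of alpha v in the vitronectin receptor of endothelium and bone and of alpha IIb in platelets, was near the floor of the table. Its TPM was 0.33, 0.29 and 0.26 with rGST and 0.33, 0.43 and 0.34 with rSLURP1. The treatments overlapped, and Itgb3 did not pass the filter and was not tested.

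Itgav (ENSMUSG00000027087.11; chromosome 2, 83724397 to 83806916, plus strand) encodes alpha v, the partner of beta 5, beta 8 and beta 3. Its TPM was 67.5, 69.8 and 64.4 with rGST and 64.1, 58.65 and 59.5 with rSLURP1. The treatments were separated by a narrow margin, between the lowest rGST library and the highest rSLURP1 library. The mean was 67.2 ± 2.73 TPM with rGST and 60.8 ± 2.92 TPM with rSLURP1 (SD, n = 3 each). It fell by 0.14 on the log2 scale (adjusted p = 0.0447 in limma, standard error 0.054). Against the all-gene median it was higher, by 0.18, and with median-ratio scaling its log2 change was 0.21 (adjusted p = 0.0215). The call as deposited was lost without rGST replicate 1 (adjusted p = 0.106), rGST replicate 2 (adjusted p = 0.140), rSLURP1 replicate 2 (adjusted p = 0.116) or rSLURP1 replicate 3 (adjusted p = 0.117) in limma. It was also lost with no filter (adjusted p = 0.0696), without mitochondrial genes (adjusted p = 0.0941) and in limma without a trend (adjusted p = 0.0788).

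Itga5 (ENSMUSG00000000555.8; chromosome 15, 103344286 to 103366763, minus strand) encodes the alpha subunit of the main fibronectin receptor, alpha 5 beta 1. Its TPM was 42.3, 46.1 and 42.7 with rGST and 28.9, 34.5 and 31.45 with rSLURP1. All rSLURP1 libraries lay below all rGST libraries, with a wider spread among the rSLURP1 libraries. The mean was 43.7 ± 2.10 TPM with rGST and 31.6 ± 2.83 TPM with rSLURP1 (SD, n = 3 each). Itga5 fell by 0.46 (log2, standard error 0.074, adjusted p = 0.0011 in limma), or -0.13 against the all-gene median. The call was lost with median-ratio scaling (-0.11, adjusted p = 0.181), and the direction turned with the length and GC correction (0.013, adjusted p = 0.866 in limma).

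Itga3 (ENSMUSG00000001507.16; chromosome 11, 95044474 to 95076801, minus strand) encodes the alpha subunit of alpha 3 beta 1, a receptor for laminins, and was the highest alpha subunit in every library. Its TPM was 275, 274 and 253 with rGST and 135, 149.9 and 141 with rSLURP1. The rSLURP1 libraries were far below the rGST libraries, with no overlap. The mean was 267 ± 12.3 TPM with rGST and 142 ± 7.59 TPM with rSLURP1 (SD, n = 3 each), 1.88 times higher with rGST. Itga3 fell by 0.91 (log2, standard error 0.053, adjusted p = 8.73e-06 in limma), or -0.58 against the all-gene median. The decrease was -0.56 with median-ratio scaling (adjusted p = 5.94e-05 in limma) and -0.42 with the length and GC correction.

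Itga6 (ENSMUSG00000027111.15; chromosome 2, 71745616 to 71858416, plus strand), the other laminin-binding alpha subunit of the set, showed no decrease. Its TPM was 30.2, 29.75 and 27.4 with rGST and 32.0, 31.4 and 30.0 with rSLURP1. The ranges of the treatments overlapped. The mean was 29.1 ± 1.49 TPM with rGST and 31.2 ± 1.03 TPM with rSLURP1 (SD, n = 3 each). Itga6 had a log2 fold change of 0.09 (95% interval -0.04 to 0.23, adjusted p = 0.191 in limma), and against the all-gene median it was 0.42. With median-ratio scaling Itga6 was called higher, at 0.44 (adjusted p = 6.77e-04 in limma), and so it was with the length and GC correction, at 0.52.

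Itga10 (ENSMUSG00000090210.7; chromosome 3, 96645584 to 96664519, plus strand) encodes a collagen-binding partner of beta 1 best known from cartilage. Its TPM was 5.30, 6.51 and 4.08 with rGST and 1.55, 1.84 and 2.03 with rSLURP1. The rGST libraries were spread most widely for their level among the tested members, and the treatments did not overlap. The mean was 5.30 ± 1.22 TPM with rGST and 1.81 ± 0.242 TPM with rSLURP1 (SD, n = 3 each), 2.93 times higher with rGST. Itga10 fell by 1.15 (log2, standard error 0.165, adjusted p = 5.98e-04 in limma), with -0.83 against the all-gene median and -0.89 after median-ratio scaling. Gm42957, which overlaps Itga10 on the same strand, reached at most 0.39 TPM. The collagen-binding subunit Itga2 (ENSMUSG00000015533.9; chromosome 13, 114833081 to 114932100, minus strand) was at 0.04, 0.06 and 0.09 TPM with rGST, and at 0.01 and 0.03 TPM and listed at 0 with rSLURP1. It did not pass the filter, so no fold is given.

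**Figure D2:**
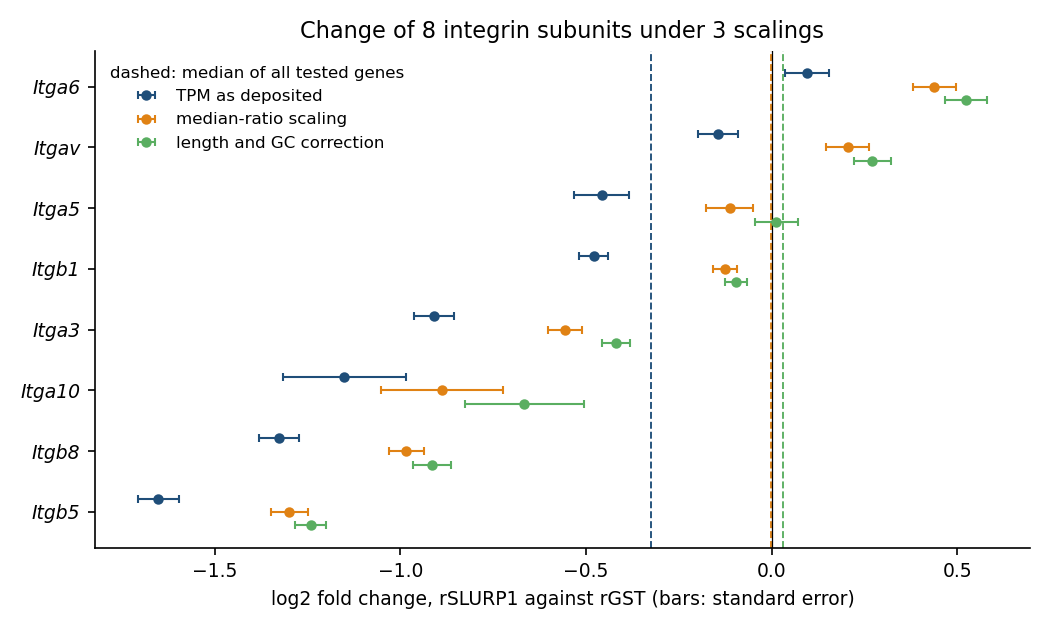
Log2 fold change of the 8 tested subunits, rSLURP1 against rGST, with standard errors as bars, for TPM as deposited, for median-ratio scaling and after correcting for transcript length and GC content. Dashed lines are the medians of all tested genes. Itgb5, Itgb8, Itga10, Itga3 and Itgb1 lie below 0 under all 3, Itgav crosses from -0.14 to 0.21 and 0.27, and Itga5 reaches 0.013 with the length and GC correction.

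With rGST, the members ranked by mean TPM as Itgb1, Itgb5, Itga3, Itgav, Itgb8, Itga5, Itga6, Itga10, Itgb3 and Itga2, and no neighbours in this order had overlapping libraries. With rSLURP1, Itga3 (142 TPM) moved ahead of Itgb5 (134 TPM), and their libraries overlapped. Itga5 (31.6 TPM) and Itga6 (31.2 TPM) also could not be ranked, since their libraries overlapped with rSLURP1. Itgb8, which had stood above both with rGST, lay below both with rSLURP1. The lower ranks of Itga10, Itgb3 and Itga2 were the same with both treatments.

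A pair can form only where both subunits are made, so the table was read against 24 known alpha-beta pairs, taking a pair as expressed where both messages had at least 1 TPM in all 3 libraries of a treatment. This describes RNA and not dimers on the cell surface. Of the 9 pairs made of members, 7 were expressed with rGST and the same 7 with rSLURP1, namely alpha 3 beta 1, alpha 5 beta 1, alpha 6 beta 1, alpha 10 beta 1, alpha v beta 1, alpha v beta 5 and alpha v beta 8. Alpha 2 beta 1 and alpha v beta 3 were not, because Itga2 and Itgb3 were below 1 TPM. With a minimum of 5 TPM, alpha 10 beta 1 dropped out and 6 pairs remained with both treatments. Of the 15 pairs with a subunit outside the set, 2 were expressed, alpha 1 beta 1 and alpha 7 beta 1. Alpha 6 beta 4, the receptor of hemidesmosomes, was not, with Itgb4 at 0.32 to 0.68 TPM with rGST and 0.37 to 0.45 TPM with rSLURP1.

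The scarcer message of each pair was then read. In each of the beta 1 pairs the alpha subunit was the scarcer message in every library. For alpha v beta 8 it was Itgb8, which fell at 2-fold. For alpha v beta 5 it was Itgav, with both treatments, so the large decrease of Itgb5 left Itgb5 above Itgav in all 6 libraries. Itgav is also the partner in alpha v beta 1 and alpha v beta 8, and how alpha v is divided among these pairs was not measured.

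Ratios of a pair of genes within a library do not depend on any single factor by which that library is scaled, such as the median ratio. Quantile scaling and the length and GC correction change them, and they were taken from TPM as deposited. The 8 ratios below were compared with a two-sided exact permutation test, which for 3 libraries against 3 cannot give a p below 0.1. Itgb5 to Itgav was 6.32, 6.17 and 6.33 with rGST and 1.92, 2.38 and 2.32 with rSLURP1. The excess of Itgb5 over its alpha partner thus shrank in every rSLURP1 library, by 1.51 in the mean log2 ratio (exact permutation p = 0.1, adjusted p = 0.114 over the 8 ratios). Itgb8 to Itgav was 0.721, 0.737 and 0.761 with rGST and 0.289, 0.337 and 0.325 with rSLURP1, also without overlap (mean log2 difference -1.23, exact permutation p = 0.1, adjusted p = 0.114). Itgb3 to Itgav was 0.00404 to 0.00489 with rGST and 0.00515 to 0.00733 with rSLURP1, again without overlap (mean log2 difference 0.46, exact permutation p = 0.1, adjusted p = 0.114). Itgb3 itself was below 0.5 TPM and its levels overlapped between treatments, so no difference in Itgb3 is read from this ratio.

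Among the ratios to Itgb1, those of the laminin receptors moved in opposite directions. Itga3 to Itgb1 was 0.527, 0.512 and 0.498 with rGST and 0.361, 0.387 and 0.390 with rSLURP1 (mean log2 difference -0.43, exact permutation p = 0.1, adjusted p = 0.114). Itga6 to Itgb1 was 0.0579, 0.0556 and 0.0539 with rGST and 0.0858, 0.0812 and 0.0828 with rSLURP1 (mean log2 difference 0.58, exact permutation p = 0.1, adjusted p = 0.114). Of the summed alpha message, a separate measure described below, Itga3 went from 62.8% to 50.6% and Itga6 from 6.84% to 11.1%. Itgav to Itgb1 was higher with rSLURP1 (0.129 ± 0.0021 against 0.163 ± 0.0103, SD, n = 3 each) and Itga10 to Itgb1 lower (0.0101 ± 0.0021 against 0.00484 ± 0.00073), each without overlap and each at the smallest exact p of 0.1. Itga5 to Itgb1 was 0.0837 ± 0.0025 with rGST and 0.0844 ± 0.0062 in the rSLURP1 libraries (SD, n = 3 each). The libraries of that last ratio overlapped (exact permutation p = 0.9).

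**Figure D3:**
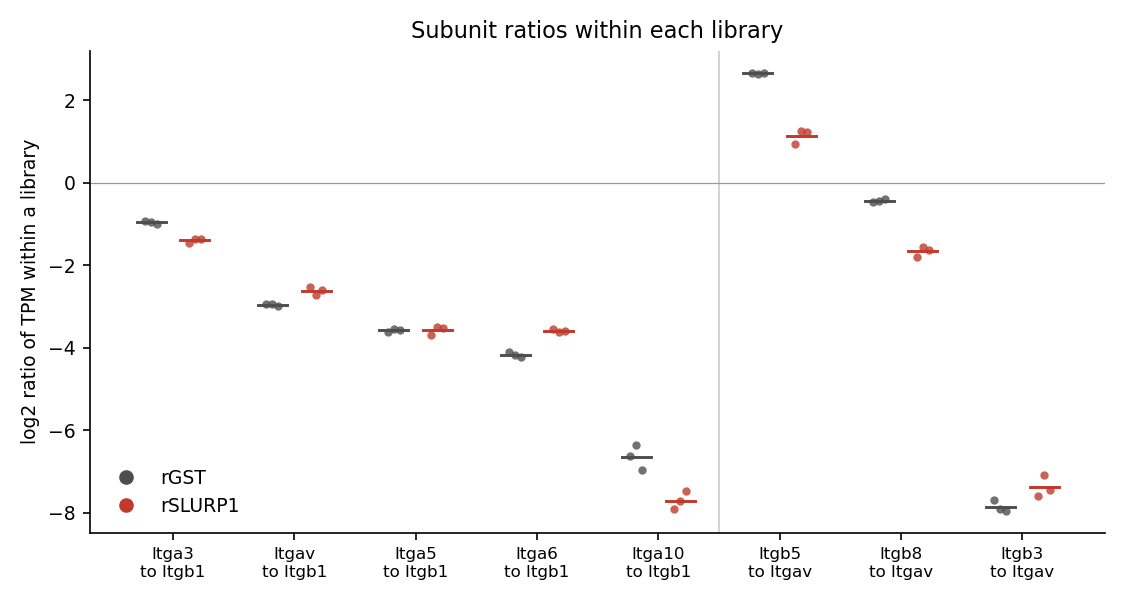
Log2 ratio of the TPM of a pair of subunits within each library, alpha subunits to Itgb1 on the left and beta subunits to Itgav on the right, for the 3 rGST libraries (grey) and the 3 rSLURP1 libraries (red), with means as bars. The ratio of Itgb5 to Itgav drops from near 6.27 to near 2.21 on the linear scale and stays above 1 (0 on the axis), and Itga5 to Itgb1 overlaps between treatments.

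The make-up of the integrin message differed between treatments, a measure chosen after the levels had been seen. The 8 beta subunits of the mouse summed to 999.9 ± 26.1 TPM with rGST and 539.9 ± 18.3 TPM with rSLURP1 (SD, n = 3 each). With rGST, Itgb1 made up 52.2% ± 0.209 and Itgb5 42.2% ± 0.317 of that sum (SD, n = 3). With rSLURP1, Itgb1 made up 69.3% ± 1.31 and Itgb5 24.7% ± 1.36 (SD, n = 3), so the beta message that had been shared between Itgb1 and Itgb5 became mostly Itgb1. The share of Itgb8 was 4.97% ± 0.108 with rGST and 3.56% ± 0.0713 in the rSLURP1 libraries (SD, n = 3 each). All 3 shares differed without overlap (exact permutation p = 0.1 for each).

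The 18 alpha subunits summed to 425.8 ± 17.5 TPM with rGST and 280.4 ± 7.32 TPM with rSLURP1 (SD, n = 3 each). Itga3 held 62.8% ± 0.482 of this sum with rGST and 50.6% ± 1.42 in the rSLURP1 libraries (SD, n = 3 each). The share of Itgav was higher with rSLURP1, at 21.7% ± 1.55 against 15.8% ± 0.208, and so was that of Itga6, at 11.1% ± 0.489 against 6.84% ± 0.105 (SD, n = 3 each). Itga5 held 10.3% ± 0.451 and 11.3% ± 0.721 (SD, n = 3 each), and its libraries overlapped (exact permutation p = 0.2). The other 3 shares did not overlap (exact permutation p = 0.1 for each).

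**Figure D4:**
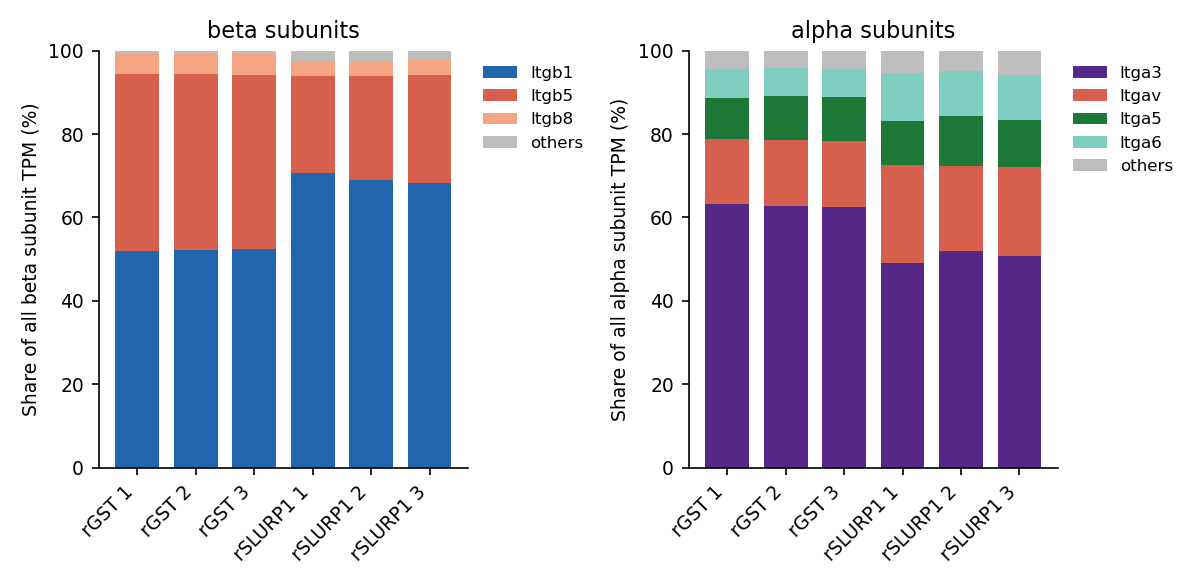
Share of the summed TPM of all 8 beta subunits (left) and all 18 alpha subunits (right) held by single subunits in each of the 6 libraries, in percent. The share of Itgb5 falls from about 42.2% to 24.7% as that of Itgb1 goes from 52.2% to 69.3%, and the share of Itga3 falls from 62.8% to 50.6%.

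The 16 integrin subunits outside the set were low, summing to 17.7 to 20.1 TPM with rGST and 25.3 to 26.0 TPM with rSLURP1. Of these, 5 passed the filter, 2 were called lower and 2 higher, where 58.5% of all tested genes were lower and 8.66% higher. With median-ratio scaling 0 were called lower and 3 higher in limma, where the shares were 25.2% and 26%. Itgb7, the beta subunit of lymphocyte homing receptors, rose from 1.26 ± 0.474 TPM to 6.92 ± 0.929 TPM (SD, n = 3 each; log2 fold change 1.82, adjusted p = 8.60e-05 in limma). Its alpha partner Itga4 was listed at 0 in every library and Itgae reached at most 0.11 TPM. Itga7, a laminin-binding partner of beta 1 known from muscle, rose from 3.42 ± 0.658 TPM to 7.55 ± 0.165 TPM (SD, n = 3 each; log2 fold change 0.96, adjusted p = 4.16e-04 in limma). Mettl7b overlaps Itga7 on the opposite strand, its mean was 1.80 TPM with rGST and 6.09 TPM with rSLURP1, and without stated strand counting the reads of the 2 genes may not be told apart. Itga2b, the platelet alpha subunit, had a log2 fold change of -0.73 (adjusted p = 0.0053) and the collagen-binding Itga1 one of -0.39 (adjusted p = 0.0227) in limma. Both of these calls were lost with median-ratio scaling (adjusted p = 0.0702 and 0.336), and that of Itga1 also without rGST replicate 1 (0.0568), rGST replicate 3 (0.0601), rSLURP1 replicate 1 (0.0545) or rSLURP1 replicate 3 (0.0748). The call of Itga1 was lost as well with no filter (adjusted p = 0.0659 in limma). Itgb2, the leukocyte beta subunit, had 4.56 ± 0.546 TPM with rGST and 5.16 ± 0.699 TPM with rSLURP1 (SD, n = 3 each, adjusted p = 0.330 in limma), and was called higher with median-ratio scaling (0.44, adjusted p = 0.0177). Of 8 leukocyte markers, 1 passed the filter (Cd68), and Cd3e, Adgre1 and Itgam were listed at 0 in every library. The summed level was 3.58 to 4.16 TPM with rGST and 8.15 to 10.6 TPM with rSLURP1. Cd68 made up most of it, at a mean of 3.77 TPM with rGST and 9.60 TPM with rSLURP1, whereas Ptprc reached at most 0.01 TPM. The part of leukocytes in the levels of Itgb7 and Itgb2 was not tested. The 4 endothelial markers summed to at most 0.31 TPM, and of 4 platelet markers Itga2b alone passed the filter, with Pf4 listed at 0.

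Inside the cell, 23 of the 27 genes listed as integrin activators and tail adaptors passed the filter. The list is not limited to proteins that bind the tail itself. Lims2 was below 1 TPM in every rSLURP1 library and passed through rGST alone. As deposited, 18 were called lower and 0 higher, where 58.5% of all tested genes were called lower and 8.66% higher. With median-ratio scaling 15 were called lower and 6 higher, where the shares of all genes were 25.2% and 26%. Their median log2 fold change was -0.57, against -0.33 over all tested genes. The focal adhesion scaffold Tns3 fell by 1.52 (adjusted p = 1.11e-06), the talin Tln2 by 1.15 (adjusted p = 1.57e-04) and the talin-binding Kank2 by 1.12 (adjusted p = 2.19e-06) on the log2 scale in limma. Tln1, the main talin, had 76.9 ± 2.33 TPM with rGST and 47.2 ± 2.78 TPM with rSLURP1 (SD, n = 3 each; log2 fold change -0.69, adjusted p = 3.34e-05 in limma). The change of Tln1 was -0.34 with median-ratio scaling and -0.14 when length and GC content were corrected for. Fermt2, a kindlin, had a log2 fold change of -0.56 (adjusted p = 1.41e-04 in limma). Ptk2, focal adhesion kinase, had 33.5 ± 3.28 TPM with rGST and 33.2 ± 1.10 TPM with rSLURP1 (SD, n = 3 each; log2 fold change -0.01, adjusted p = 0.952 in limma), and was called higher with median-ratio scaling (0.34, adjusted p = 0.0068).

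Among ligands, a list of RGD ligands, latent TGF-beta genes and matricellular proteins, not all with an RGD motif, held 18 genes. Of these, 11 passed the filter, with 8 called lower and 1 higher (median -0.81). For this list and the collagen, laminin and mesenchymal lists that follow, the shares of all tested genes were 58.5% lower and 8.66% higher, the background against which their counts stand. The ligand of alpha 5 beta 1 and alpha v pairs, Fn1, had 5416 ± 20.96 TPM with rGST and 3084 ± 100.2 TPM with rSLURP1 (SD, n = 3 each; log2 fold change -0.81, adjusted p = 2.73e-06 in limma). The largest decreases past 2-fold were Ctgf (-2.79, adjusted p = 3.46e-07), Thbs2 (-1.82, adjusted p = 1.60e-05) and Thbs1 (-1.57, adjusted p = 7.75e-07), matricellular proteins that bind integrins. Of 10 collagen genes, 7 passed, 5 were called lower and 1 higher (median -1.10). Of the lower ones, Col1a1 and Col6a2 were below 1 TPM in every rSLURP1 library. They passed the filter through rGST alone, so they could only be called lower. On the log2(TPM + 1) scale the collagens that fell most were Col1a1 (-2.88), Col6a1 (-2.45) and Col6a3 (-1.18). On the TPM scale Col6a2, at 1.76 TPM with rGST and 0.303 TPM with rSLURP1, changed by a larger factor than Col6a3. The collagen receptor subunits were low, with Itga10 at most 6.51 TPM and Itga2 at most 0.09 TPM in any library. Of 11 laminin genes, 4 passed, 3 were called lower and 0 higher (median -0.58). With median-ratio scaling the RGD list had 8 lower and 3 higher, the collagens 5 and 2, and the laminins 2 and 0, against 25.2% and 26% of all genes. Col1a1 and Fn1 are also among the 9 mesenchymal markers, of which all 8 that passed the filter were called lower, and the part of that shift in the ligand and integrin levels was not tested.

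At the membrane, 9 of 10 lateral partners of integrins passed the filter, 3 were called lower and 5 higher, with a median log2 fold change of 0.14, where 58.5% of all tested genes were lower and 8.66% higher. With median-ratio scaling 2 were lower and 7 higher, where the shares of all genes were 25.2% and 26%. Cav1, the caveolae protein, fell from 189 ± 24.5 TPM to 63.8 ± 4.05 TPM (SD, n = 3 each; log2 fold change -1.54, adjusted p = 1.01e-05 in limma). Plaur, the urokinase receptor, rose from 17.1 ± 2.22 TPM to 38.6 ± 4.91 TPM (SD, n = 3 each; log2 fold change 1.13, adjusted p = 1.19e-04 in limma). Cd151, the tetraspanin that binds alpha 3 beta 1 and alpha 6 beta 1, had 160.4 ± 6.55 TPM with rGST and 157 ± 4.78 TPM with rSLURP1 (SD, n = 3 each; log2 fold change -0.03, adjusted p = 0.531 in limma), and was called higher with median-ratio scaling (0.32, adjusted p = 4.06e-04).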

How the data were processed

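RNA of D2A1 spheroids was analysed in 6 libraries, which the labels place in 2 treatments of 3 libraries each. Per the submitters' processing notes, which give no order, the tools were bcl2fastq 2.20, cutadapt 1.18, STAR 2.5.2b and RSEM 1.3.3 on mm10. These notes also name DESeq2, without a version. The paper's methods name other versions of cutadapt and RSEM. The authors deposited 1 table of TPM with 1 column per library. The paper's methods describe Smart-seq2 libraries, whereas the labels name a TruSeq mRNA kit, and which was used is not settled. Coordinates, transcript length and GC content came from GENCODE M21 (GRCm38), in which 52480 of 54146 gene identifiers matched with their version and 54079 without it.

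The paper's methods describe DESeq2 for the comparisons of its sorted tumor cells. That test needs counts and was not run on TPM here. Here log2(TPM + 1) was tested with limma 3.58.1 in R 4.3.3 (lmFit, eBayes with trend, Benjamini-Hochberg adjustment), two-sided, with the study's thresholds and no block. Genes reaching 1 TPM in 3 or more libraries were kept. A gene that reached 1 TPM only in the 3 libraries of a single treatment also passed, and could only be called higher in that treatment. Single ratios and shares were compared by two-sided exact permutation tests in scipy 1.17.1. Figures were made with matplotlib 3.10.9. The limma fit was tested on simulated data. Depth is unknown, so no counting error was computed.

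The members, gene lists and tests were chosen with earlier results of these data known. Named were the 10 members, other subunits past the filter, the 3 largest called changes of at least 2-fold without overlap in each of the lists of adaptors, ligands and lateral partners (not the cell type markers), and Ptk2, Tln1, Fermt2, Fn1, Plaur and Cd151 whatever their values. Alternatives were a pseudocount of 0.1, each library left out in turn, a loess correction (span 0.3) for length and GC content, the replicate number as a block, quantile and median-ratio scaling, no trend in eBayes, no mitochondrial genes, no filter, and a filter met by all 6 libraries. Those sorted cells were not analysed here.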

Additional observations from a re-analysis of the deposited data

How the results depend on the processing

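Of 128 values of the tested members under the alternatives, 108 kept their direction and their side of the threshold, 10 lost the call, 4 gained one and 6 changed direction. Itgb5, Itgb8, Itga10, Itga3 and Itgb1 kept their calls under every alternative run. Members called at 2-fold numbered 1 with median-ratio scaling, quantile scaling and the correction for length and GC (blocked or not), and 3 in each fit that left out a library. The members' median was -0.47 with no filter (10 members), -0.34 with median-ratio scaling, -0.53 with quantile scaling and -0.26 with the correction for length and GC (blocked or not), and -0.74 to -0.67 with a library left out. Those fits called 6 to 7 members and 7561 to 7905 genes. Of the calls over all genes, the share in the lower direction was 48.3% with quantile scaling and 44.8% with the length and GC correction, against 87.1% as deposited.

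Direction turned for Itgav at 0.21 (median-ratio), 0.15 (quantile) and 0.27 (length and GC), for Itga5 at 0.013 and Itga1 at 0.044 (both length and GC), for Cd151 at 0.32 (median-ratio), 0.17 (quantile) and 0.26 (length and GC), and for Ptk2 at 0.34 (median-ratio), 0.35 (quantile), 0.42 (length and GC) and 0.020 (without mitochondrial genes). The values for length and GC were the same with the block. With a library left out, Ptk2 ranged from -0.078 to 0.060, with 0.0012 without rGST replicate 1 and 0.017 without rSLURP1 replicate 3, and the log2 ratio of Itga5 to Itgb1 from -0.031 to 0.072. Every other ratio kept its direction with a library left out. The cause was not tested.

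The replicate numbers showed no sign of pairing the libraries, though the sources used here do not say how the cultures were set up. Deviations of same-numbered libraries from their treatment means correlated at -0.056, -0.034 and -0.061, and 0 of 6 libraries were closest to their own number. With the replicate block, 6 members and 7962 genes (6954 lower, 1008 higher) were called, and Itgav (adjusted p = 0.0654) and Itga1 (adjusted p = 0.0538) were not in limma. With this block on values corrected for length and GC, 2468 genes were called lower and 3095 higher, and Tln1 lost its call (-0.14, adjusted p = 0.0531 in limma). Depth is unknown, so differences in Itgb3 and Itga2, both under 0.5 TPM, could not be assessed.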

Other observations

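Itgbl1 (ENSMUSG00000032925.16; GRCm38 chromosome 14, 123659971 to 123975618, plus strand), named integrin beta-like 1, is no subunit and pairs with no alpha subunit, but its secreted product resembles the stalk of a beta subunit. It was chosen after its values had been seen. Its TPM was 111, 109 and 92.5 with rGST and 0.60, 0.52 and 0.62 with rSLURP1. All rSLURP1 libraries were thus below 1 TPM. Itgbl1 passed the filter through rGST alone, so it could only be called lower, and no p is given. On the log2 scale it changed by -6.05 (standard error 0.091) as deposited and -5.81 with median-ratio scaling. This was larger in size than for any of the 8 integrin subunits of the set that were tested.

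Itgb7 and Itgb2 are beta subunits for which no expressed alpha partner was found among the 24 known pairs. Itgb7 was 1.16, 0.85 and 1.78 TPM with rGST and 7.52, 7.39 and 5.85 TPM with rSLURP1, and the alpha subunits that pair with Itgb2 (Itgal, Itgam, Itgax and Itgad) reached at most 0.03 TPM.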
